A study of Homo sapiens with 6 samples.

Results

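The 43 genes described here encode proteins of the human centromere, the kinetochore, the spindle checkpoint and the chromosomal passenger complex. They were chosen by symbol, by a rule that holds no measured value but was written with earlier results of these data known, and all 43 were found among the 54259 gene symbols of the count table. RNA-Sequence libraries came from MDA-MB-231, an established line of human breast carcinoma cells. The shBry group held 3 libraries of MDA-MB-231 cells that carry the short hairpin RNA named shBry, directed against the transcription factor brachyury. The shNC group held 3 libraries of the same cells with the control hairpin shNC. All 6 libraries shared the cell line, the extraction of total RNA and a minimum RNA integrity for library construction. The vector, the time after its introduction and whether each line was a clone or a pool are not given in the sources used here. The labels do not say that the libraries of a group came from separate cultures, so p-values measure the spread between these libraries, which may be technical.

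The kinetochore is the protein assembly that ties each chromosome to the microtubules of the mitotic spindle. It is built on centromeric chromatin that contains the histone variant CENP-A, through an inner layer called the constitutive centromere-associated network (CCAN) and an outer layer that includes the Ndc80 and Mis12 complexes. Unattached kinetochores start the spindle checkpoint, in which MAD and BUB proteins restrain CDC20 and so delay the anaphase-promoting complex. Many of these genes are transcribed mainly in the late phases of the cell cycle.

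Between 19319411 and 22985371 counts per library were listed, and 15277 genes passed the filter on low counts and were tested. Brachyury, listed under its older symbol T, had 0 counts in all 6 libraries, so the hairpin's target gives no check of the labels. The counts therefore show no knockdown, and whether the differences below follow from a loss of brachyury was not tested. Vimentin (VIM), a mesenchymal marker of this line, lay between 3032 and 3982 CPM, the count scaled to the effective library size. The 6 markers listed for this line, VIM included, summed to between 5468 and 5699 CPM in shNC and between 5003 and 5238 CPM in shBry. Most of each sum was VIM. CAV1 and S100A4 among the markers fell in shBry. VIM and SPARC lay lower in every shBry library, and CD44 and AXL higher, all by less than 1.5-fold. CDH1, ESR1 and PGR were at or near 0 counts, whereas GATA3 lay between 9.35 and 13.9 CPM although it was listed as a gene this line should lack. ESRP1, also on the list of genes that should be absent, lay between 3.97 and 7.46 CPM. The 6 leukocyte markers summed to at most 5 counts in a library. The deposited description calls the RNA pericardial, but the cardiac markers MYH6, NPPA and MYL7 were at 0 counts in every library. A further cardiac marker, TNNT2, had 2 counts in shNC replicate 1 and 0 elsewhere. MSLN, a mesothelial marker, lay between 27.6 and 49.2 CPM, and CALB2 was at 11.1 CPM in shNC replicate 3 and between 0.590 and 1.37 CPM elsewhere. LRRN4 lay between 3.06 and 4.82 CPM in shNC and between 6.34 and 7.80 CPM in shBry. UPK3B and WT1 had at most 5 and 7 counts in a library. The 9 mesothelial and cardiac markers summed to between 40.2 and 42.1 CPM in shNC and between 51.4 and 57.7 CPM in shBry, and their part in the results below was not tested.

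One library of each group stood apart. The deviation of a gene from its group mean fell with the GC content of its transcripts in shNC replicate 3 (r = -0.52 over 13587 genes) and in shBry replicate 2 (r = -0.32). In the other 4 libraries r lay between 0.012 and 0.353. These are correlations across genes, which are not independent replicates. Where leaving out either library moved a fold change by over 1.5 times, the value without it is given.

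The RNA of the centromere and kinetochore genes was lower in shBry than in shNC. Summed over the 43 genes, the level was 2203, 2258 and 2381 CPM in the 3 shNC libraries and 1371, 1407 and 1394 CPM in the 3 shBry libraries. Every shBry sum was below every shNC sum. SKA1 did not pass the filter on low counts, and of the 42 tested genes 21 fell (50%), 1 rose and 20 were not called. A call required an adjusted p under 0.05 in edgeR's quasi-likelihood test and a difference of more than 1.5-fold. Among all tested genes 15.2% were called lower, 17.1% higher and 32.4% either way. The median log2 fold change was -0.64 over the 42 genes, with a range from -1.92 to 0.77, and 0.033 over all tested genes. It was below 0 in 37 of the 42 genes, against 47.7% of all tested genes. In 27 of the 42 genes all shBry values lay below all shNC values, against 28.9% of all tested genes. CENPC was among the 27 only by a near tie. In 4 genes all shBry values lay above all shNC values, against 30.6% of all tested genes, and in 11 genes the groups overlapped. Groups without overlap in either direction made up 59.5% of all tested genes. In bulk RNA, fewer cells in a phase that transcribes these genes and less RNA per cell cannot be told apart.

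**Figure D1:**
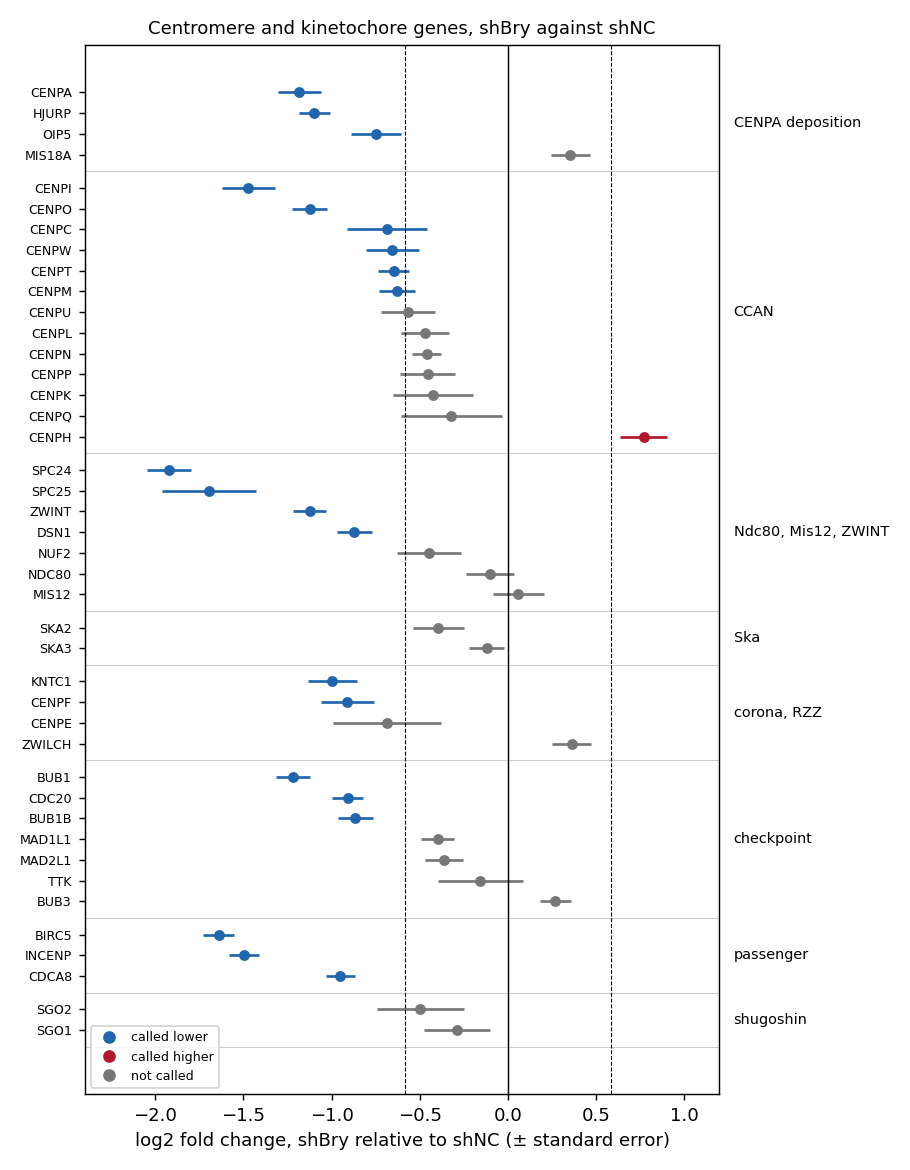
Log2 fold change of each tested gene in shBry relative to shNC (points) with its standard error (bars), grouped by role. Dashed lines mark the 1.5-fold limit. The 21 genes called lower are blue, CENPH, called higher, is red, and the 20 genes not called are grey.

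The plot of fold changes by role shows that called and uncalled genes stood side by side in most assemblies. Of the 4 genes of CENP-A deposition 3 fell, of 13 CCAN genes 6 fell and 1 rose, and of 7 genes of the Ndc80 and Mis12 group 4 fell. Among the 4 genes of the fibrous corona and the RZZ complex 2 fell, among 7 checkpoint genes 3 fell, and all 3 genes of the chromosomal passenger complex fell. Neither of the 2 tested Ska genes nor the 2 shugoshin genes were called. The role groups had median log2 fold changes between -1.497 for the passenger complex and -0.26 for Ska.

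**Figure D2:**
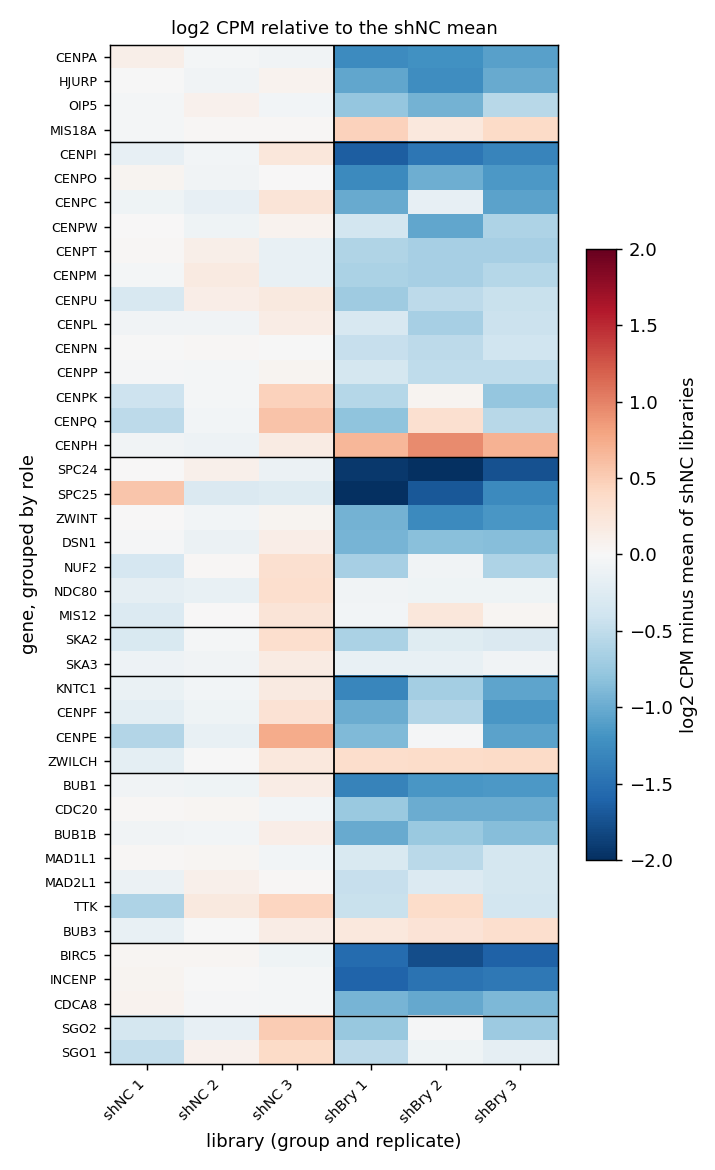
Log2 CPM of each tested gene in each of the 6 libraries, relative to the mean of the 3 shNC libraries (colour scale), grouped by role. Blue fields in the 3 right columns are lower than the shNC mean, as for SPC24 and BIRC5, and red fields are higher, as for CENPH.

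In the colour plot of single libraries the called genes showed the same sign in all 3 shBry libraries. The genes that were not called included several, such as TTK, CENPQ and SGO2, in which shBry replicate 2 or shNC replicate 3 was higher than the other libraries of its group.

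CENPA encodes the histone variant that marks the centromere (chr2:26764289-26801067 on GRCh38, plus strand). It was measured at 28.7, 25.7 and 25.1 CPM in shNC and at 11.1, 11.4 and 12.5 CPM in shBry. All shBry values lay below all shNC values, and the log2 fold change was -1.18 ± 0.12 (SE, adjusted p = 1.84e-06, edgeR). HJURP, the chaperone that carries CENP-A to the centromere, fell with a log2 fold change of -1.10 ± 0.089. OIP5, a subunit of the Mis18 complex that primes the centromere for new CENP-A, fell from a mean of 15.3 to 9.11 CPM (log2 fold change -0.75 ± 0.14). Its partner MIS18A had 22.6, 23.7 and 23.8 CPM in shNC and 32.1, 27.1 and 30.5 CPM in shBry. The MIS18A values in shBry all lay above those in shNC, with a log2 fold change of 0.35 ± 0.11 (adjusted p = 0.0138), which is under the fold limit and was not called. Of the exon bases of OIP5, 38.0% overlap OIP5-AS1 on the opposite strand, and the strand setting of the counting is not given in the sources used here, so reads of both genes cannot be told apart. OIP5-AS1 itself had a log2 fold change of -0.15 (adjusted p = 0.328).

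Within the CCAN, which stays on the centromere throughout the cell cycle, CENPI had the largest fold change. CENPI (chrX:101098218-101163681, plus strand) was at 16.4, 17.6 and 21.4 CPM in shNC and at 5.87, 6.70 and 7.32 CPM in shBry. The groups did not overlap, and the log2 fold change was -1.47 ± 0.15 (adjusted p = 1.91e-06). CENPH, a subunit of the same CENP-H, CENP-I and CENP-K assembly, was the 1 gene of the 42 that rose. CENPH (chr5:69189548-69210357, plus strand) had 11.7, 11.5 and 13.8 CPM in shNC and 19.5, 23.7 and 19.99 CPM in shBry. All shBry values were higher than all shNC values, and the log2 fold change was 0.77 ± 0.13 (adjusted p = 2.26e-04). It was called higher in all 6 fits that left out a library. CENPM, a further subunit of that assembly, fell to a log2 fold change of -0.63 ± 0.10, although the call was lost without shNC replicate 2 (-0.56). CENPK overlapped between the groups (log2 fold change -0.42 ± 0.23, adjusted p = 0.132) and was called lower without shBry replicate 2 (-0.72) and without shNC replicate 1 (-0.61), whereas without shBry replicate 3 the value was -0.26 and without shNC replicate 3 it was -0.19 (adjusted p = 0.530).

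The other CCAN genes lay between these. CENPO, of the CENP-O, CENP-P, CENP-Q and CENP-U assembly, fell from a mean of 74.7 ± 3.3 to 34.2 ± 3.5 CPM (SD, n = 3), with -1.12 on the log2 scale. In CENPO 31.4% of exon bases overlap other genes, mainly ADCY3 on the opposite strand, which had a log2 fold change of -0.43 (adjusted p = 6.84e-04). CENPP and CENPU of that assembly had log2 fold changes of -0.45 (adjusted p = 0.0241) and -0.57 (adjusted p = 0.00662), both under the fold limit. CENPU was called lower without shBry replicate 2 (-0.60), without shBry replicate 3 (-0.63) and without shNC replicate 1 (-0.72). CENPQ had the CCAN fold change nearest 0, with 6.002, 8.32 and 12.8 CPM in shNC and 4.95, 10.7 and 5.90 CPM in shBry. The CENPQ values of both groups overlapped widely, shNC replicate 3 and shBry replicate 2 being highest, and the log2 fold change was -0.32 ± 0.29 (adjusted p = 0.364). Leaving out shBry replicate 2 gave -0.74 and a lower call, leaving out shNC replicate 1 gave -0.55, and leaving out shNC replicate 3 gave -0.0043 (adjusted p = 0.993). The values without shBry replicate 1 and without shBry replicate 3 were -0.11 and -0.19.

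CENPC, which binds the CENP-A nucleosome directly, was at 8.20, 7.80 and 10.4 CPM in shNC and at 4.36, 7.80 and 4.17 CPM in shBry. Its shBry replicate 2 (7.798 CPM) lay barely under shNC replicate 2 (7.800 CPM), so the separation of the CENPC groups is a near tie. The log2 fold change was -0.68 ± 0.23 (adjusted p = 0.0198). The CENPC call was lost without shBry replicate 1 (-0.55), without shBry replicate 3 (-0.52) and without shNC replicate 3 (-0.57), and without shBry replicate 2 the value was -1.06. CENPT and CENPW, histone-fold proteins that form a second link to the Ndc80 complex, fell with log2 fold changes of -0.65 and -0.66. The CENPW call was lost without shBry replicate 2 (-0.50). CENPL and CENPN, which bind the CENP-A nucleosome as a pair, had log2 fold changes of -0.47 (adjusted p = 0.0101) and -0.46 (adjusted p = 2.92e-04), without overlap between the groups and under the fold limit. Overlap with exons of other genes on either strand also covered 42.7% of CENPP, 22.8% of CENPN, 19.6% of CENPT and, among the shugoshins, 17.7% of SGO1. In each of these genes the main overlapping gene lay on the opposite strand. For CENPP this was IPPK, with means of 23.5 CPM in shNC and 30.8 CPM in shBry (log2 fold change 0.39, adjusted p = 0.00712, edgeR). For CENPT it was TSNAXIP1 (-0.71, adjusted p = 0.0277) and for CENPN it was CMC2 (-0.18, adjusted p = 0.147). The antisense gene SGO1-AS1 at SGO1 was at or near 0 CPM. The part of these reads in the fold changes was not tested. HJURP, OIP5, CENPC and the further genes given with values outside the rule for named genes were chosen after their values were seen.

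The Ndc80 complex, the main microtubule-binding element of the kinetochore, consists of NDC80 and NUF2, which hold the microtubule end, and SPC24 and SPC25, which hold the centromere end. SPC24 (chr19:11131520-11155808, minus strand) had the largest fold change of all 42 genes. It was measured at 45.2, 48.2 and 41.1 CPM in shNC and at 11.7, 10.4 and 13.4 CPM in shBry. The groups lay far apart, with a log2 fold change of -1.92 ± 0.12 (adjusted p = 1.78e-08), or a 3.79-fold lower level in shBry. SPC25 was at 9.76, 5.48 and 5.56 CPM in shNC and at 1.56, 2.07 and 2.75 CPM in shBry. Its log2 fold change was -1.70 ± 0.27 (adjusted p = 1.09e-04), and -1.37 without shNC replicate 1, the highest library.

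NDC80 and NUF2, at the other end of the complex, were not called. NDC80 had 25.5, 26.1 and 36.7 CPM in shNC and 27.6, 27.4 and 27.4 CPM in shBry. All 3 shBry values of NDC80 lay within the range of shNC, and the log2 fold change was -0.10 ± 0.14 (adjusted p = 0.562), with 0.065 when shNC replicate 3 was left out and about -0.20 when shNC replicate 1 was. NUF2 had 15.9, 20.6 and 25.04 CPM in shNC and 12.7, 19.1 and 13.2 CPM in shBry, with overlap. Its log2 fold change was -0.45 ± 0.18 (adjusted p = 0.0521), and NUF2 was called lower without shBry replicate 2 (-0.67) and without shNC replicate 1 (-0.60), and had -0.30 without shNC replicate 3 (adjusted p = 0.216).

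The promoter sequences of the 4 subunits are shown because the subunits of 1 complex differed in fold change. They are RefSeq sequences on GRCh38.p14, from 130 bases before to 25 bases after the start site, and capitals mark matches to 3 motifs known from cell cycle promoters. The cell cycle genes homology region (CHR) was searched as TTTGAA and, in its variant form, as TTCGAA. The CCAAT box, which the factor NF-Y binds, was searched by its name letters. The E2F core was searched as TTCCCGC with the variants written as TTCGCGC, also as TTGCCGC, and finally as TTGGCGC. Each motif was searched on both strands, so that a match on the opposite strand reads as its reverse complement. TTCGAA is its own reverse complement and matches on both strands at once. The windows are chr19:11155758-11155912 on the minus strand for SPC24, chr2:168890406-168890560 on the minus strand for SPC25, chr18:2571427-2571581 on the plus strand for NDC80 and chr1:163321824-163321978 on the plus strand for NUF2.
SPC24: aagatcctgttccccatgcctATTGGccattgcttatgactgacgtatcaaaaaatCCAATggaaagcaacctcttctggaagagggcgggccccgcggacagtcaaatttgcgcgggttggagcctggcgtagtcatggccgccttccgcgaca
SPC25: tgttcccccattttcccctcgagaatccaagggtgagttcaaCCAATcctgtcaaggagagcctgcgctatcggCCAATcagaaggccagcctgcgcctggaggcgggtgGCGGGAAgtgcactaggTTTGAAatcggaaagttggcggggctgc
NDC80: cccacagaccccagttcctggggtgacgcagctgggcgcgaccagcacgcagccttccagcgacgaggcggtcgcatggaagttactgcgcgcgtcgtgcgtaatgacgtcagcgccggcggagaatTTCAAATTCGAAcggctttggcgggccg
NUF2: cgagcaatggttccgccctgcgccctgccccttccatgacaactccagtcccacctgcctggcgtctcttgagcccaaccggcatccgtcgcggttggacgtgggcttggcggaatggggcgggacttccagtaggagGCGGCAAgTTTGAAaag
SPC24 and SPC25 each showed 2 CCAAT boxes in this window, and NDC80 and NUF2 showed none. A CHR match stood near the start site in SPC25, NDC80 and NUF2 and was not in the SPC24 window. A match is a description of the letters, not a bound site or a cause.

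The Mis12 complex joins the Ndc80 complex to the inner kinetochore, and its subunits also differed. DSN1 fell from a mean of 50.6 ± 4.3 to 27.7 ± 0.91 CPM (SD, n = 3), or -0.87 on the log2 scale. MIS12 had 14.0, 17.1 and 20.2 CPM in shNC and 16.3, 19.7 and 17.4 CPM in shBry. The MIS12 groups overlapped completely, with a log2 fold change of 0.059 ± 0.15 (adjusted p = 0.751), which was 0.17 without shNC replicate 3, -0.033 without shBry replicate 2 and -0.070 without shNC replicate 1. ZWINT, a partner of the microtubule-binding scaffold KNL1, had means of 159 ± 5.3 CPM in shNC and 72.9 ± 8.6 CPM in shBry (SD, n = 3) and fell by 1.12 on the log2 scale (adjusted p = 2.16e-07).

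The Ska complex helps kinetochores to follow shrinking microtubules. SKA2 was at 44.9, 54.1 and 69.7 CPM in shNC and at 35.9, 46.8 and 45.4 CPM in shBry. Replicate 3 of shNC was highest, the groups overlapped, and the log2 fold change of -0.39 ± 0.14 (adjusted p = 0.0334) was under the fold limit. Without shNC replicate 3 it was -0.23 (adjusted p = 0.157). SKA3 had 38.7, 39.5 and 46.4 CPM in shNC and 37.5, 37.4 and 39.6 CPM in shBry, a log2 fold change of -0.12 ± 0.10 (adjusted p = 0.333) that was -0.060 without shNC replicate 3. SKA1 was listed with 28, 4 and 5 counts in shNC and with 3, 8 and 8 counts in shBry, too few for a comparison.

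The fibrous corona forms on kinetochores that lack microtubules, and its RZZ complex brings checkpoint proteins to them. KNTC1, the large subunit of RZZ (chr12:122527246-122626396, plus strand), had 59.3, 62.8 and 74.1 CPM in shNC and 26.2, 40.7 and 31.2 CPM in shBry. The groups did not overlap, and the log2 fold change was -0.996 ± 0.14 (adjusted p = 3.95e-05). ZWILCH, of the same complex, had 26.9, 30.5 and 35.6 CPM in shNC and 39.4, 39.8 and 40.4 CPM in shBry. Each shBry value of ZWILCH lay above each shNC value, but the log2 fold change of 0.36 ± 0.11 (adjusted p = 0.0135) was under the fold limit. CENPF, a large coiled-coil protein of the corona, had means of 64.7 ± 11.8 CPM in shNC and 34.4 ± 7.3 CPM in shBry (SD, n = 3) and fell by 0.91 on the log2 scale. CENPE, the kinesin motor that moves chromosomes to the spindle equator, had 7.42, 9.97 and 18.5 CPM in shNC and 6.03, 10.9 and 5.28 CPM in shBry. The CENPE groups overlapped and its log2 fold change was -0.68 ± 0.31 (adjusted p = 0.0744). It was called lower without shBry replicate 2 (-1.09), without shNC replicate 1 (-0.93) and without both shBry replicate 2 and shNC replicate 3 (-0.66), whereas without shNC replicate 3 alone the value was -0.25 (adjusted p = 0.492).

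Among the checkpoint genes, the kinase BUB1 had the largest fold change. BUB1 (chr2:110637698-110678114, minus strand) was measured at 90.3, 89.0 and 105 CPM in shNC and at 37.5, 42.1 and 42.7 CPM in shBry. All shBry values were lower, with a log2 fold change of -1.22 ± 0.097 (adjusted p = 1.53e-07). BUB1B, which encodes the checkpoint inhibitor BUBR1, fell with a log2 fold change of -0.87 ± 0.098. BUB3, the adaptor that binds both BUB1 and BUBR1, had 124, 136 and 153 CPM in shNC and 159, 166 and 173 CPM in shBry. The BUB3 values in shBry all lay above those in shNC, and the log2 fold change was 0.27 ± 0.089 (adjusted p = 0.0198), under the fold limit.

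CDC20, the activator of the anaphase-promoting complex that the checkpoint holds back, had the highest level per length of the 43 genes, at 115 CPM per kilobase of exon in shNC. Its values were 239, 240 and 225 CPM in shNC and 140, 118 and 117 CPM in shBry. Without overlap between the groups, the log2 fold change was -0.91 ± 0.087 (adjusted p = 1.03e-06). Of the 50-base stretches in CDC20 transcripts 7.68% occur in other transcripts, mainly the pseudogene CDC20P1, which is the highest share among the 43 genes. MAD2L1 and MAD1L1, which encode the core MAD2 and MAD1 pair of the checkpoint signal, had log2 fold changes of -0.36 (adjusted p = 0.0119) and -0.40 (adjusted p = 0.00270), without overlap and under the fold limit. TTK, the MPS1 kinase at the head of the pathway, had 12.3, 21.5 and 25.3 CPM in shNC and 13.9, 24.4 and 14.5 CPM in shBry. The TTK groups overlapped, with shBry replicate 2 near the upper shNC values, and the log2 fold change was -0.16 ± 0.24 (adjusted p = 0.610). It was -0.48 without shBry replicate 2, -0.41 without shNC replicate 1 and 0.046 without shNC replicate 3.

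The chromosomal passenger complex corrects faulty attachments at the inner centromere, and all 3 of its genes in the list fell. BIRC5, which encodes survivin (chr17:78214186-78225636, plus strand), had 166, 164 and 152 CPM in shNC and 55.2, 47.0 and 52.4 CPM in shBry. The lowest shNC value was well above the highest shBry value, and the log2 fold change was -1.64 ± 0.088 (adjusted p = 2.85e-09). INCENP, the scaffold of the complex, was measured at 112, 107 and 104 CPM in shNC and at 35.5, 38.9 and 40.2 CPM in shBry, a log2 fold change of -1.497 ± 0.087 (adjusted p = 6.46e-09). CDCA8, which encodes borealin, had 112, 104 and 103 CPM in shNC and 55.7, 52.3 and 57.1 CPM in shBry. Its log2 fold change was the smallest of the 3, at -0.95 ± 0.083 (adjusted p = 4.05e-07), again without overlap.

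The shugoshins protect centromeric cohesion and help to place the passenger complex. SGO1 had 13.6, 20.3 and 24.9 CPM in shNC and 13.2, 18.0 and 16.7 CPM in shBry, a log2 fold change of -0.29 ± 0.19 (adjusted p = 0.213). SGO2 had 5.73, 6.52 and 10.4 CPM in shNC and 4.31, 7.21 and 4.43 CPM in shBry, a log2 fold change of -0.50 ± 0.25 (adjusted p = 0.105). Both genes overlapped between the groups and were not called, and SGO2 was called lower without shBry replicate 2 (-0.80) and without shNC replicate 1 (-0.66). With shNC replicate 3 left out, the values were -0.22 for SGO2 (adjusted p = 0.484) and -0.10 for SGO1 (adjusted p = 0.676), and SGO1 was at -0.50 without shNC replicate 1.

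**Figure D3:**
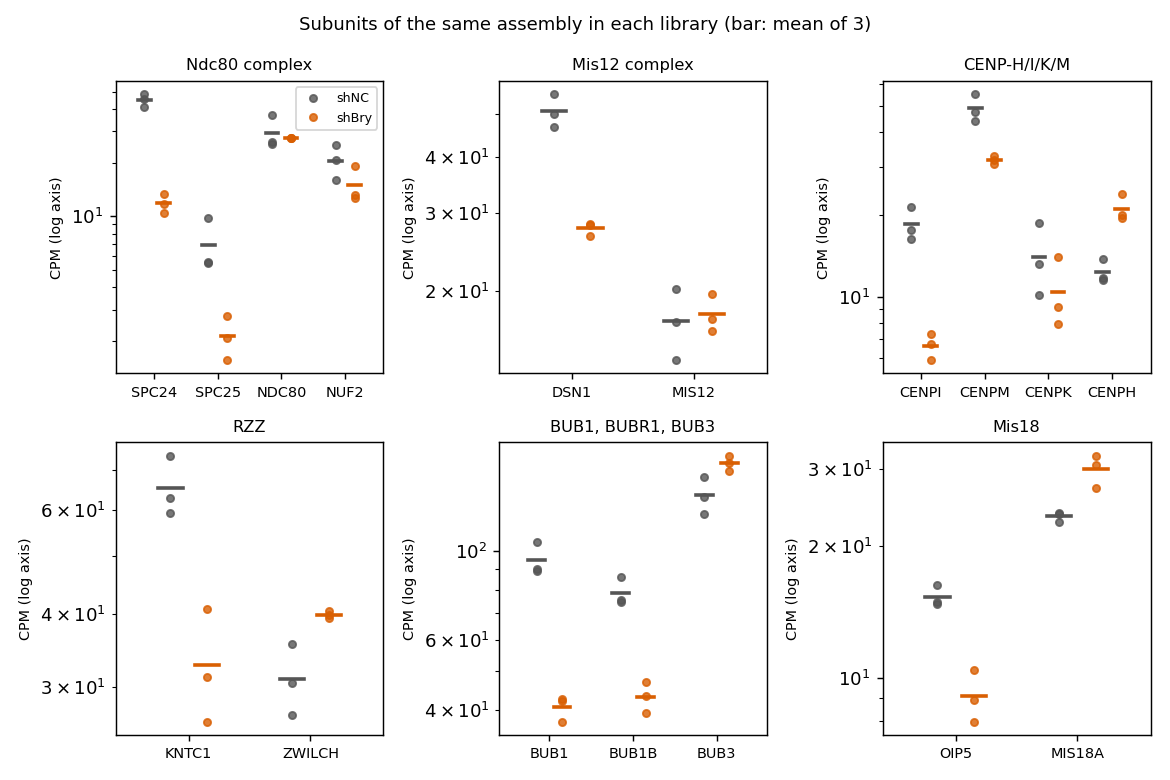
CPM (log axis) of subunits of the same assembly in each shNC (grey) and shBry (orange) library, with bars for the mean of 3 libraries. SPC24, SPC25, DSN1, CENPI, KNTC1, BUB1 and OIP5 were lower in every shBry library, whereas NDC80 and MIS12 overlapped and CENPH, ZWILCH, BUB3 and MIS18A were higher in every shBry library.

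The plot of partner subunits sets genes of the same assembly side by side, and the ratios between partners moved accordingly. Ratios were taken per kilobase of exon in 10 pairs that were chosen after their values were seen, so no test is given. SPC24 over NDC80 was 2.25, 2.34 and 1.42 in shNC and 0.539, 0.483 and 0.620 in shBry. The ratio of CENPI to CENPH was 0.724, 0.792 and 0.803 in shNC and 0.156, 0.147 and 0.190 in shBry. BUB1 over BUB3 went from a mean of 0.949 ± 0.052 to 0.338 ± 0.012 (SD, n = 3), and KNTC1 over ZWILCH from 0.905 ± 0.033 to 0.351 ± 0.078. In each of these pairs the shBry ratios lay below the shNC ratios, as they also did for SPC25 over NUF2, DSN1 over MIS12 and OIP5 over MIS18A. The ratio of SPC24 to SPC25 was 4.50 ± 1.37 in shNC and 3.77 ± 0.96 in shBry (SD, n = 3) and overlapped, as did CENPM over CENPK and NDC80 over NUF2. The order of levels per kilobase also shifted. In shNC, CDC20 was followed by ZWINT at 66.8, CDCA8 at 43.0 and BIRC5 at 42.1 CPM per kilobase, of which CDCA8 and BIRC5 did not differ beyond their spread, and in shBry BIRC5 was at 13.5 and CDCA8 at 22.3.

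Promoter sequences of BUB1 (chr2:110678039-110678193, minus strand), CDC20 (chr1:43358851-43359005, plus strand) and INCENP (chr11:62123881-62124035, plus strand) are shown as examples of genes that fell and hold both a CHR match and CCAAT boxes. They have the same build, window and marking as the promoters of the Ndc80 complex.
BUB1: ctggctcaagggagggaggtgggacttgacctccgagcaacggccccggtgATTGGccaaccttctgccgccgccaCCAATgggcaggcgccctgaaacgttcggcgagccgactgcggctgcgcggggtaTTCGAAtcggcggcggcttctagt
CDC20: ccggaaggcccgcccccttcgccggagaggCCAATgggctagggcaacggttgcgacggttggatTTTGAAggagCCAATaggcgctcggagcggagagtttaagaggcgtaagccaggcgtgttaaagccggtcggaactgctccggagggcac
INCENP: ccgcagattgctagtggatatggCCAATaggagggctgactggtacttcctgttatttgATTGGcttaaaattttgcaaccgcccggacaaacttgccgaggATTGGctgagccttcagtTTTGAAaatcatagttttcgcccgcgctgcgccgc
BUB1 and CDC20 each had 2 CCAAT boxes in the window and INCENP had 3. The CHR match began at base 2 of the transcript in BUB1, and 65 and 10 bases before the start site in CDC20 and INCENP.

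RefSeq promoters, from 250 bases before to 50 bases after the start site, were found for 35 of the 43 genes. MIS18A, CENPH, CENPL, CENPM, KNTC1, BUB3, TTK and BIRC5 had no entry. The CHR was found in 21 of the 35 genes (60%), against 15.3% of 10516 tested genes and 19.5% of all 27305 genes with a promoter. Of the 18 genes with an entry that fell, 14 held a CHR match (77.8%), and of the 16 that were tested and did not fall, 6 held one (37.5%). Among all genes called lower the share was 17.5%. A CHR match together with a CCAAT box was found in 12 of the 18 and in 3 of the 16, against 8.33% of tested genes. CCAAT boxes, with or without a CHR match, were found in 13 of the 18 and 11 of the 16 genes, against 42.8% of tested genes, and the E2F core in 5 of the 18 and 6 of the 16, against 24.6%. With the window shortened to 150 bases before the start, the CHR was still found in 21 of the 35 genes, against 9.16% of tested genes. These shares are descriptions of letters in the windows, and binding was not measured in these files.

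**Figure D4:**
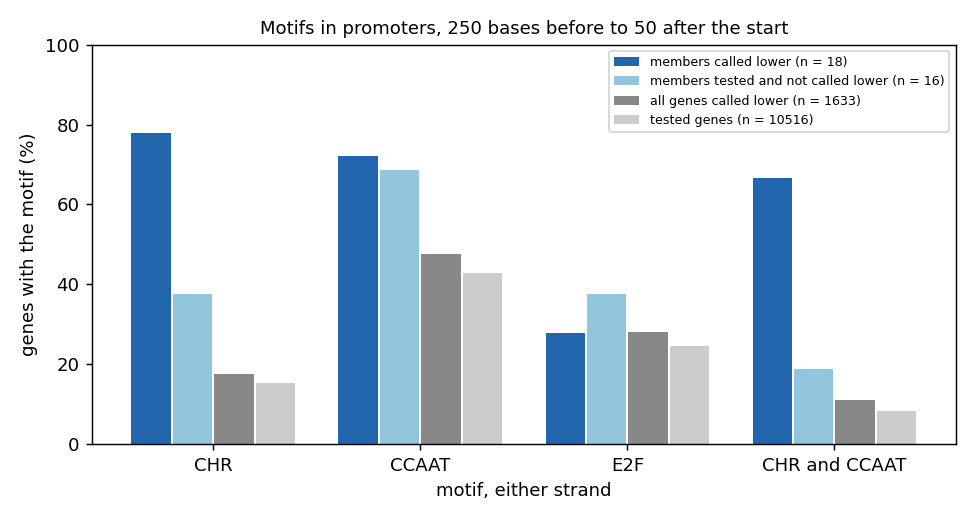
Share of genes (%) with each motif on either strand in the window from 250 bases before to 50 bases after the start site. Bars stand for the 18 centromere and kinetochore genes called lower, the 16 tested and not called lower, all 1633 genes called lower and all 10516 tested genes with a promoter. The CHR bar is 77.8% in the first set and 37.5% in the second, whereas the CCAAT bars of both sets are within 4 percentage points.

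The bar plot of motifs shows the CHR and the combination of CHR and CCAAT with larger shares in the genes that fell than in those that did not, a difference that was not tested. HJURP, OIP5, CENPA, CENPC, CENPF, CENPW, CDCA8, ZWINT and SPC25 also held both, whereas BUB1B and CENPO held a CHR match with no CCAAT box. CENPI, CENPT, DSN1 and SPC24 fell without a CHR match in the window. CENPN, MAD2L1 and SGO1 held both motifs and were not called, and NDC80, NUF2 and SKA3, also not called, held a CHR match with no CCAAT box.

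Of the 20 further kinetochore genes outside the list, 11 fell (55%) and 1 rose, against 15.2% and 17.1% of all tested genes, with a median log2 fold change of -0.62. SPAG5, a spindle protein that attaches to kinetochores, had 119, 109 and 117 CPM in shNC and 29.4, 30.2 and 28.1 CPM in shBry, a log2 fold change of -1.98 ± 0.087 (adjusted p = 4.00e-10). PLK1, a mitotic kinase, had 229, 214 and 210 CPM in shNC and 72.8, 62.4 and 66.1 CPM in shBry, a log2 fold change of -1.70 ± 0.086 (adjusted p = 1.64e-09). All shBry values of both genes were below all shNC values. BOD1, which helps chromosomes to attach to both poles, had 53.2, 53.2 and 52.3 CPM in shNC and 88.7, 75.4 and 93.1 CPM in shBry, and rose with a log2 fold change of 0.70 ± 0.094 (adjusted p = 2.61e-05). AURKB, the kinase of the passenger complex, fell like the 3 listed subunits (log2 fold change -1.12). ZW10, the third RZZ subunit, fell as well (-0.68), as did PMF1 of the Mis12 complex (-1.14). Of the exon bases of PMF1, 23.3% overlap PMF1-BGLAP on the same strand. NSL1, also of the Mis12 complex, overlapped between the groups and was not called (-0.41, adjusted p = 0.0254, edgeR).

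The anaphase-promoting complex, the target of the checkpoint, and its partners included calls in both directions. Of 20 genes 4 fell (20%) and 2 rose (10%), near the 15.2% and 17.1% of all tested genes, with a median log2 fold change of -0.21. ESPL1, which encodes separase, had 114, 107 and 103 CPM in shNC and 52.3, 50.1 and 48.1 CPM in shBry, a log2 fold change of -1.11 ± 0.084 (adjusted p = 9.58e-08). ANAPC2, a catalytic subunit, had 61.0, 58.9 and 51.1 CPM in shNC and 32.6, 29.7 and 29.6 CPM in shBry, a log2 fold change of -0.90 ± 0.10 (adjusted p = 4.61e-06). ANAPC7 and FBXO5 also fell. The small subunits ANAPC13 and ANAPC16 rose. ANAPC13 had 17.5, 29.1 and 33.9 CPM in shNC and 37.3, 54.0 and 45.7 CPM in shBry (log2 fold change 0.77 ± 0.19, adjusted p = 0.00374). ANAPC16 had 63.3, 61.3 and 61.2 CPM in shNC and 116, 85.9 and 111 CPM in shBry (log2 fold change 0.75 ± 0.11, adjusted p = 3.99e-05). Neither gene overlapped between the groups, and without shNC replicate 1 the list had 1 gene called higher. UBE2C and UBE2S, the ubiquitin-conjugating enzymes of the complex, had log2 fold changes of 0.32 (adjusted p = 0.00699) and 0.34 (adjusted p = 0.0105), under the fold limit.

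Regulators of late cell cycle transcription were the last list, in which 7 of 18 tested genes fell and 1 rose (all tested genes 15.2% and 17.1%), with a median log2 fold change of -0.33. CDKN1A, which encodes the cyclin-dependent kinase inhibitor p21, had 65.3, 65.8 and 56.8 CPM in shNC and 289, 257 and 275 CPM in shBry. It rose with a log2 fold change of 2.13 ± 0.089 (adjusted p = 2.45e-10). E2F8, a repressor of the E2F family, had 19.9, 19.6 and 23.9 CPM in shNC and 5.38, 7.17 and 5.99 CPM in shBry, and fell with a log2 fold change of -1.77 ± 0.15 (adjusted p = 2.88e-07). Every shBry library was on the same side of shNC for both genes. FOXM1, an activator of mitotic genes, fell (-1.62), as did E2F1 (-1.49), MYBL2 (-0.98), RBBP4 (-0.99), RBL2 (-0.83) and TFDP1 (-0.83). The log2 fold change was above 0 in 8 of the 18 genes. Among these were NFYA (0.52, adjusted p = 2.69e-04, edgeR) and NFYC (0.50, adjusted p = 3.67e-04), both of NF-Y, without overlap and under the fold limit. E2F2 did not pass the filter on low counts.

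GC content moved with both the libraries and the fold changes. Across the 42 genes the Spearman correlation of log2 fold change with GC content was -0.36, against -0.16 over 13587 tested genes, and it is given as a description without a test. Of the 11 genes with GC below 40%, 2 were called lower (median log2 fold change -0.45), of the 21 genes between 40% and 50%, 11 were (-0.75), and of the 10 genes at 50% or more, 8 were (-0.93). In all tested genes the medians of these classes were 0.21, 0.061 and -0.085, and 159 of 2060, 762 of 5311 and 1197 of 6216 genes were called lower, so that the share rose with GC content there as well. With the trend of all genes with GC content removed, the median over the 42 genes was -0.76. Without both shBry replicate 2 and shNC replicate 3, 21 genes were called lower, of which 20 were among the 21 called with all libraries. CENPW was lost and CENPE was gained.

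**Figure D5:**
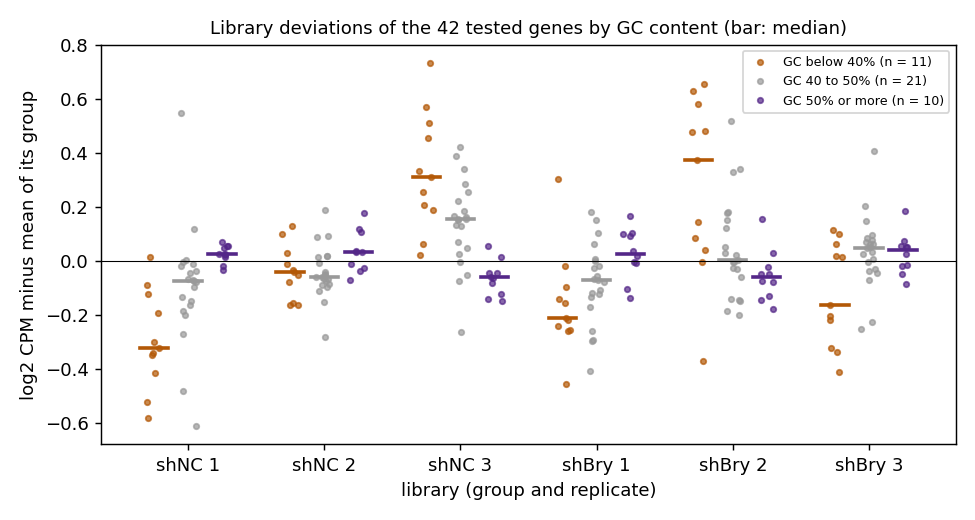
Deviation of the log2 CPM of each of the 42 tested genes from the mean of its group, by library and by GC content of the gene, with bars for the median. Genes with GC below 40% have medians of 0.31 in shNC replicate 3 and 0.37 in shBry replicate 2, and medians below 0 in the other 4 libraries. These medians were taken with a prior count of 2 in the log2 CPM, which the plotted values lack.

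The plot of deviations by GC content shows that genes with low GC content varied most between libraries of the same group. CENPQ, CENPE, CENPC, NUF2, SKA2 and SGO2 were among these. Of the 42 genes, 28 had their highest shNC value in replicate 3, and 17 had their highest shBry value in replicate 2.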

How the data were processed

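The authors deposited raw counts, whole numbers of reads per gene symbol without normalization, for 3 shBry and 3 shNC libraries. The submitters' processing notes name HISAT2 2.0.4, HTSeq and GRCh38, and the annotation and the strand setting are not given in the sources used here. Samples were grouped by their labels. Genes with low counts were removed by filterByExpr with a minimum count of 10. TMM factors were applied to the library totals over the remaining genes. The 2 groups were tested with edgeR 4.0.16 under R 4.3.3 (quasi-likelihood F test, p adjusted after Benjamini-Hochberg over all 15277 tested genes). A call needed an adjusted p under 0.05 and more than a 1.5-fold difference. Standard errors belong to log2 fold changes, and CPM are TMM-normalized. Levels between genes were compared per kilobase of exon in GENCODE 29, matched by symbol. Among the further kinetochore genes, KNL1 is listed as CASC5, CENPS as APITD1, CENPX as STRA13 and HASPIN as GSG2. The smallest library held 19319411 counts. The test was tried on simulated counts first.

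The genes and lists were chosen with earlier results of these data known. Values in every library were given for the genes with the largest and the smallest fold change of each role group, for genes called higher, for the gene with the highest level per kilobase, and for the 2 largest calls and the minority calls of each further list. The results were recomputed with DESeq2 1.42.0, with limma-voom (limma 3.58.1), without TMM, with other filters and fold limits, with the replicate number as a block and without each library in turn. Leaving out shBry replicate 2 and shNC replicate 3 together and removing the trend with GC content (20 classes, 13587 genes with a value) were added after the data were seen.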

Additional observations from a re-analysis of the deposited data

How the results depend on the processing

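The fold limit moved the counts most. At a limit of 2, 10 of the 43 genes were called lower and 0 higher, as were 6 and 0 of the further kinetochore genes and 1 and 0 of the anaphase-promoting complex genes, 3 regulators were lower, and 2297 of all tested genes were called. The fitted genes were the same, and these counts change by construction. With no limit, 28 of the 43 were called lower and 4 higher (MIS18A, CENPH, ZWILCH and BUB3), 8 and 6 anaphase-promoting complex genes lower and higher, 3 regulators higher, and 8139 genes in all. The 21 lower calls were all kept, and CENPH stayed higher, without TMM, with DESeq2 (22 lower), with limma-voom, without the expression filter (23 lower) and with at least 10 counts in every library. With single libraries left out, 20 to 26 of the 43 genes were called lower, 18 of the 21 in all 6 fits, and 1 to 3 anaphase-promoting complex genes were called higher. Between 4587 and 5025 of all tested genes were called in those fits, against 4945 with all libraries. The totals over all tested genes in this section count both directions, so they give no share of lower calls to set beside the 43 genes. The log2 fold change of MIS12 ranged from -0.070 to 0.17 and that of TTK from -0.48 to 0.046 in those fits (MIS12 was -0.033 without shBry replicate 2), and for both the cause was not tested. Removing the GC trend moved the median from -0.64 to -0.76. The labels number the replicates alike in both groups. Deviations of same-numbered libraries correlated with r of 0.18, -0.084 and -0.028, and those of differently numbered libraries with r between -0.22 and 0.23. With 3 libraries per group and the trend with GC content in 1 library of each, these values cannot settle whether the numbers pair the libraries. The fit with the replicate block called 21 of the 43 genes lower, 1 higher and 4914 genes in all. SKA1 had at most 28 counts in a library and was not tested, and the part of depth in the results for other weakly expressed genes was not tested.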
